A study of Drosophila melanogaster with 382 samples.

Results

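Bsg25D and Elba3 are a pair of genes known for their transcription in the blastoderm, the stage at which the Drosophila embryo is a single layer of nuclei under its surface and its own genome takes over from maternal RNA. They were taken by name, as 2 of the 13587 named genes of the deposited expression table, by a rule that uses no measured value, although earlier results of these data were known when they were chosen. Embryos were frozen, cut along the anteroposterior axis, and sequenced slice by slice. The groups were zld (7 embryos from germline clones lacking the maternal transcription factor Zelda, in a background that also carries a His2Av-RFP histone), bcd RNAi (4 embryos) and hb RNAi (3 embryos), in both of which a maternal tubulin Gal4 driver produced a hairpin RNA in the mother, 2.4x bcd (4 embryos of a single line with extra copies of an eGFP-Bcd fusion), and wild type (WT, 7 Canton-S embryos). Wild-type embryos cover cycles 11, 13, 14A, 14B, 14C, 14D and 14E with 1 embryo each, zld embryos cover cycle 11, cycle 13 (3 embryos), 14A, 14B and 14D, and the other lines have 2 embryos at each of cycles 13 and 14D, except hb RNAi with 1 at cycle 13. The embryo is the replicate here, and its value is the mean FPKM (sequenced fragments scaled by transcript length and library size) of its slices.

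Nuclear cycles 11 to 13 are rapid divisions with little transcription, and transcription becomes widespread during the long cycle 14, in which membranes grow in between the nuclei. Zelda binds the regulatory DNA of many of the earliest zygotic genes and opens it for other factors. Bsg25D, now also named Nin, encodes a coiled-coil protein related to Ninein, a protein of the centrosome. Elba3 encodes the adaptor of the ELBA complex, in which it joins Elba1 and Elba2, a pair of proteins with a BEN domain. That complex binds the Fab-7 boundary of the bithorax complex in the early embryo.

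In the BDGP6 annotation Bsg25D lies on chromosome 2L from 5271728 to 5278548 on the minus strand, with 7 annotated transcripts, and its nearest protein-coding neighbours are tkv and Bub1. Bub1 is transcribed away from it and starts 316 bases beyond it. Elba3 is a gene of 1 exon and 1446 bases, from 4687511 to 4688956 on the plus strand of 2L. Its neighbours are CG11929, 278 bases away, and CG3251, 8 bases away and pointing towards it. Elba1, listed in the files under its older name Bsg25A, lies within the span of CG11929 on the opposite strand. Whether their exons overlap was not checked. Reads from any shared exon could not be told apart in libraries that do not record strand. The 2 genes were listed at unlike levels, with 1036 FPKM for Elba1 and 2.35 FPKM for CG11929 in wild type at 14A.

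The zld and wild-type libraries (TruSeq, with yeast RNA as carrier) held an estimated 245500 to 10470000 fragments a slice, from the 105 of 113 slices in which the worth of 1 fragment could be read from the values. At the median, 1 fragment on Elba3 was worth 0.295 FPKM in zld slices and 0.831 FPKM in wild-type slices. The other 3 lines were made with SMARTseq2 from thinner slices without carrier. Of the perturbed genes, vfl (which encodes Zelda) stood at 0 to 0.645 FPKM in 6 zld embryos, but at 5.01 FPKM in the embryo labelled zld at cycle 14B, against 2.302 to 10.2 FPKM in wild type. The zld values without that embryo are given beside the results below. bcd was at 0.929 to 9.72 FPKM in bcd RNAi and hb at 4.55 FPKM at cycle 13 and 29.9 and 19.2 FPKM at 14D in hb RNAi, against 26.8 and 150.4 FPKM of hb in wild type at those stages, whereas bcd in the embryos labelled 2.4x bcd was 132 and 156 FPKM at cycle 13 but only 11.3 and 4.21 FPKM at cycle 14D, against 94.2 and 72.1 FPKM in wild type at those stages. At 14D bcd was also low in hb RNAi, at 0.723 and 0.622 FPKM, and it was 2.04 FPKM in wild type at 14E. A low bcd value at 14D was thus not particular to the lines in which bcd was changed. Slice 1 was taken as the anterior end, which the labels do not state. bcd was higher in the anterior than in the posterior part in 21 of the 22 embryos that could be split into 3 equal parts. Of the RNAs taken as posterior markers, osk was higher in the posterior part in 21 embryos, nos in 20, pgc in 17 and gcl in 14. CycB was so in 10 and Tre1 in 5, so both went the other way in most embryos.

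In wild type, both genes were near their lowest level at cycle 11 and climbed steeply, but only Elba3 declined within the period sampled. Bsg25D measured 8.11 FPKM at cycle 11, 41.1 at cycle 13, 179.9 at 14A, 471 at 14B, 393 at 14C, 499 at 14D and 628 FPKM at 14E. Its highest value was thus in the oldest embryo, 1.26-fold above 14D. Elba3 measured 1.45 FPKM at cycle 11, 258 at cycle 13, 1056 at 14A, 997 at 14B, 1068 at 14C, 876 at 14D and 459 FPKM at 14E. In FPKM Elba3 was thus within its highest levels by 14A, when Bsg25D was still below its later levels, and the 14E value was 52.3% of the 14D value. In the kallisto values, in TPM (defined below), Elba3 instead rose until 14D. It was at 309.8 TPM at 14A, 368 at 14B, 382 at 14C, 475 at 14D and 222 TPM at 14E. The decline at 14E was thus seen in both, and the early plateau in FPKM only. With 1 embryo a stage these are descriptions without a test. The SD over the slices of an embryo was 9.18% to 30.8% of the mean for Elba3 at cycle 13 and later, and 17.6% to 30.5% for Bsg25D. In the order of Elba3 levels, the neighbours 14C, 14A, 14B and 14D differed by less than 1 such SD and 14E stood below them by more. In the order of Bsg25D levels, 14D, 14B and 14C differed from the next by less than 1 such SD, 14E stood above 14D by more than the SD of 14D and less than its own, and 14A stood below them by more. This spread is over the slices of an embryo, not between embryos. At cycle 11 Elba3 was listed at 0 in 6 of 10 wild-type slices and reached 11.05 FPKM in the posterior slice 14, about 6 fragments, while the other 9 slices were at or under the worth of 3 fragments.

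**Figure D1:**
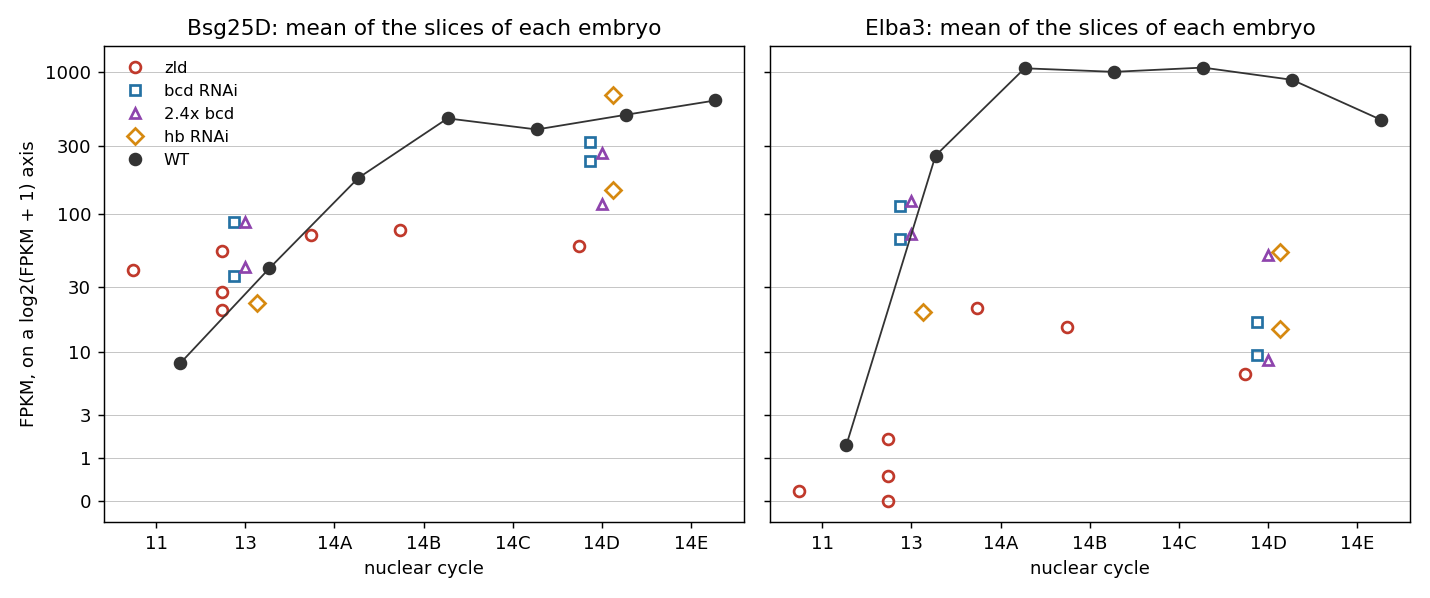
Mean FPKM of Bsg25D (left) and Elba3 (right) in each of the 25 embryos by nuclear cycle, on a log2(FPKM + 1) axis. Each symbol is 1 embryo, and the line joins the wild-type embryos. Wild-type Bsg25D reaches 628 FPKM at cycle 14E, wild-type Elba3 is at 459 FPKM there, and the zld embryos stay at or below 21.3 FPKM for Elba3.

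The zld embryos show what each gene did without maternal Zelda at matched stages. Elba3 fell 46.1-fold over the 5 matched stages (log2 change -5.53 ± 0.70, SE, adjusted p = 0.00081, limma over 12 embryos and 6582 genes). Its means were 0.166 FPKM at cycle 11, 0, 0.492 and 1.71 FPKM at cycle 13, and 21.3, 15.5 and 6.71 FPKM at 14A, 14B and 14D in zld, against 1.45, 258, 1056, 997 and 876 FPKM at cycles 11, 13, 14A, 14B and 14D in wild type. At cycles 13 and 14 each zld embryo was at 2.02% or less of wild type at its stage. Over all genes tested, 35.2% passed the threshold in this comparison, 30.8% higher and 4.38% lower in zld, so a fall was the rarer call. In whole slices, fewer expressing nuclei and less RNA in each cannot be told apart. With FPKM divided by a median-ratio size factor per embryo, 701 genes passed as higher and 1150 as lower in place of 2028 and 288, and the median log2 change of all genes was -0.09 in place of 0.36. Elba3 fell under each of the 12 alternatives tried, with log2 changes from -6.68 to -4.69. Without the embryo labelled zld at cycle 14B it was -5.44 ± 0.81 (adjusted p = 0.0054).

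In the zld embryo at cycle 13 numbered 1, Elba3 was listed at 0 in each of its 3 slices with values. These were slices 4, 5 and 7 of 8, so its anterior part had no value and is left out of its mean of 0 FPKM. At the depth of the 3 valued slices, 3 fragments correspond to 2.67 to 3.21 FPKM, so the zeros do not exclude a level up to that size. The replicate numbered 2 had 1.39 FPKM in slice 2, which was read at 10470000 fragments and so rests on about 21 of them, and the replicate numbered 3 had 4.82 FPKM in slice 1. In both of those embryos the most posterior slice with a value was listed at 0 FPKM for Elba3. These limits cover counting error only, and not slices without a value.

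The Bsg25D levels were compared stage by stage. At cycle 11 Bsg25D measured 39.9 FPKM in zld and 8.11 FPKM in wild type, 4.92-fold higher in zld. At cycle 13 the zld embryos had 28, 20.5 and 55.1 FPKM, on either side of the wild-type value of 41.1 FPKM. At cycle 14 it was lower in each zld embryo, at 71.6 FPKM against 179.9 in wild type at 14A, 77.1 against 471 at 14B and 59.8 against 499 FPKM at 14D, or 39.8%, 16.4% and 11.98% of wild type. Over all matched stages Bsg25D did not pass the threshold (log2 change -0.97 ± 0.57, adjusted p = 0.21, and -0.61 ± 0.61 without the embryo labelled zld at cycle 14B). Without the wild-type embryo at cycle 11, an alternative chosen after the data were seen, it did (log2 change -1.67 ± 0.43, adjusted p = 0.0147).

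Fitted by period, Bsg25D fell 4.98-fold in zld at cycles 14A, 14B and 14D (log2 change -2.32 ± 0.52, adjusted p = 0.0136), a comparison in which 22.1% of genes passed. Without the embryo labelled zld at cycle 14B the size was similar but the call was lost (log2 change -2.18 ± 0.68, adjusted p = 0.12). At cycles 11 and 13 the Bsg25D log2 change was 0.65 ± 0.57 (adjusted p = 0.52). The difference between the 2 periods was -2.97 ± 0.78 on the log2 scale for Bsg25D (adjusted p = 0.32), and in that test no gene passed (0% of 6582, limma), with 480 genes at an unadjusted p under 0.05. For Elba3 the log2 change was -6.11 ± 0.94 at cycle 14 (adjusted p = 0.0027, and -6.20 ± 1.21 with adjusted p = 0.028 without the embryo labelled zld at cycle 14B) and -4.83 ± 1.03 at cycles 11 and 13 (adjusted p = 0.035), where 6.14% of genes passed. The early Elba3 call was lost without that zld embryo (adjusted p = 0.057), and in all under 6 of the 12 alternatives, with adjusted p between 0.057 and 0.25 in those 6.

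What remained of both transcripts in the cycle 14 zld embryos was graded from anterior to posterior, more steeply than in wild type. At cycle 13, with 3 to 5 valued slices an embryo and no slope test, Bsg25D had 31.2 FPKM in the anterior and 13.5 in the posterior part of the zld embryo numbered 2, but 52.5 and 58.9 FPKM in the embryo numbered 3, against 52.2 and 35.7 FPKM in wild type. Elba3 at cycle 14A had 109 FPKM in slice 1, 10.7 in slice 2, 3.81 in slice 3 and 0.76 to 1.84 FPKM in slices 4 to 6 of the zld embryo, against 941 to 1228 FPKM over the 9 wild-type slices. At cycle 14B it had 93.9, 24.03 and 3.18 FPKM in slices 1 to 3 and 0 to 1.35 FPKM in the other 5 slices of the zld embryo, against 778 to 1267 FPKM in wild type. At cycle 14D it had 32.3, 24.6, 14.9, 6.46 and 4.58 FPKM in slices 1 to 5 and at most 1.49 FPKM in slices 6 to 13, against 652 to 1122 FPKM in wild type. Thus even the highest zld slice of Elba3 stayed below the lowest wild-type slice at each of these stages.

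Bsg25D had the same direction of slope over a higher floor. At cycle 14A it had 214 FPKM in slice 1 and 83.4, 53.9, 36.5, 20.1 and 22.3 FPKM in slices 2 to 6 of the zld embryo, against 129 to 240 FPKM in wild type, so that slice 1 alone lay within the wild-type range. At cycle 14B the zld embryo had 239.7 FPKM in slice 1 and 25.2 to 94.3 FPKM in the rest, against 318 to 600.5 FPKM in wild type. Its last slice, at 92.0 FPKM, stood above the 3 slices before it. At cycle 14D it had 166 FPKM in slice 1 and 24.1 to 34.2 FPKM in slices 10 to 13 of the zld embryo, against 286 to 627 FPKM in wild type. In the zld embryo at cycle 11, Bsg25D varied only between 33.1 and 50.5 FPKM over its 7 slices, against 5.05 to 13.6 FPKM over the 10 wild-type slices.

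**Figure D2:**
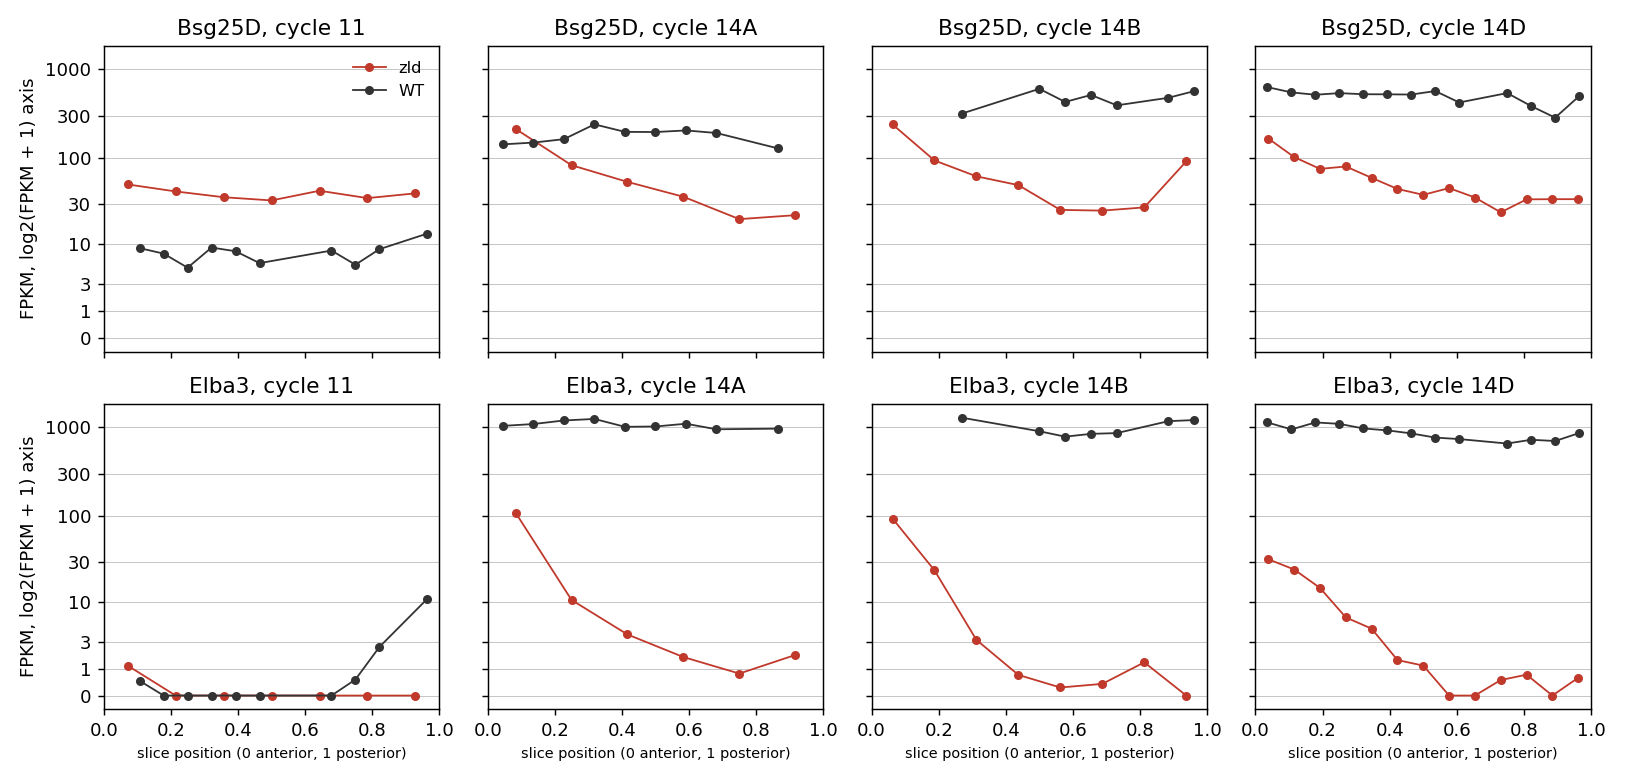
FPKM of Bsg25D (top) and Elba3 (bottom) in each slice with a value, by position from anterior (0) to posterior (1), in the zld embryo (red) and the wild-type embryo (black) at cycles 11, 14A, 14B and 14D. The axis is log2(FPKM + 1). At cycle 14 the zld profiles decline from slice 1, to 0.58 FPKM for Elba3 and 34.2 FPKM for Bsg25D in the last slice at 14D, while the wild-type Elba3 slices at 14D lie between 652 and 1122 FPKM.

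To test the slope over embryos, each embryo gave 1 value per gene, the log2 ratio of the mean FPKM plus 1 in the anterior part to that in the posterior part, each 1 of 3 equal lengths. For Elba3 the values were 0.66, 4.73, 4.72 and 3.83 in the zld embryos at cycles 11, 14A, 14B and 14D, against -2.02 to 0.78 in the 7 wild-type embryos. At cycle 11 the zld value rests on about 1 fragment in slice 1, and the wild-type -2.02 largely on about 6 in slice 14. The posterior part of zld had 1.3, 0.567 and 0.445 FPKM at 14A, 14B and 14D. These are close to or below the 1 FPKM added, so the size of the cycle 14 ratios depends on it. The zld mean was 3.49 ± 0.49 (SE, adjusted p = 0.000425, with 1.28% of genes called) and exceeded that of wild type by 3.54 ± 0.61 (adjusted p = 0.0068). For Bsg25D the values were 0.29, 2.75, 1.43 and 1.72 in the same zld embryos, against -0.59 to 0.54 in wild type. The zld mean was 1.55 ± 0.26 (adjusted p = 0.0021) and exceeded that of wild type by 1.59 ± 0.32 (adjusted p = 0.0227). Both genes are thus among the 0.437% of 6864 genes whose slope differed between zld and wild type, of which 27 genes were steeper towards the anterior in zld and 3 towards the posterior. In wild type neither slope passed the test (log2 ratio -0.04 ± 0.19 for Bsg25D and -0.06 ± 0.37 for Elba3), where 2.24% of genes did. Of the other Elba genes, Elba1 (1.59 ± 0.40, adjusted p = 0.049) and Elba2 (0.78 ± 0.17, adjusted p = 0.019) were also higher in the anterior part within zld, while insv was not called (0.04 ± 0.13, adjusted p = 0.95), and Elba3 was the only one of these 4 whose slope passed against wild type.

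The outermost slices carry part of this slope. Slice 1 had a value in each of the 4 zld embryos of this test, but in wild type only at 14A, 14C and 14D. The first wild-type slice with a value was slice 2 at cycles 11, 13 and 14E and slice 4 at 14B. The anterior parts of the 2 genotypes are thus not fully alike. The fit without the outermost slices held 21 embryos, 6 of them wild type. Without the first and last slice with a value in each embryo, the excess over wild type was 2.16 ± 0.59 for Elba3 (adjusted p = 0.20) and 1.29 ± 0.29 for Bsg25D (adjusted p = 0.074), although within zld alone the slope still passed for Elba3 (2.31 ± 0.46, adjusted p = 0.0145) and Bsg25D (1.31 ± 0.22, adjusted p = 0.0038). Without the embryo labelled zld at cycle 14B the slope within zld still passed for Elba3 (3.07 ± 0.55, adjusted p = 0.0116) and Bsg25D (1.59 ± 0.30, adjusted p = 0.0175), but the excess did not pass and was 3.13 ± 0.66 for Elba3 (adjusted p = 0.059) and 1.63 ± 0.36 for Bsg25D (adjusted p = 0.085). Without the embryo at 14A it was 3.13 for Elba3 (adjusted p = 0.066) and 1.19 for Bsg25D (adjusted p = 0.16), and without that at 14D the Bsg25D excess was 1.53 (adjusted p = 0.11). Over cycle 14 embryos alone, with 3 zld and 5 wild-type embryos, both excesses were larger, at 4.26 ± 0.31 for Elba3 (adjusted p = 7.78e-06) and 2.09 ± 0.29 for Bsg25D (adjusted p = 0.0023). Within slice 1, vfl was at 0.59, 4.6 and 0 FPKM in the zld embryos at 14A, 14B and 14D, against 0.09 to 0.52, 4.01 to 5.91 and 0 to 0.52 FPKM in the other slices of those embryos.

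**Figure D3:**
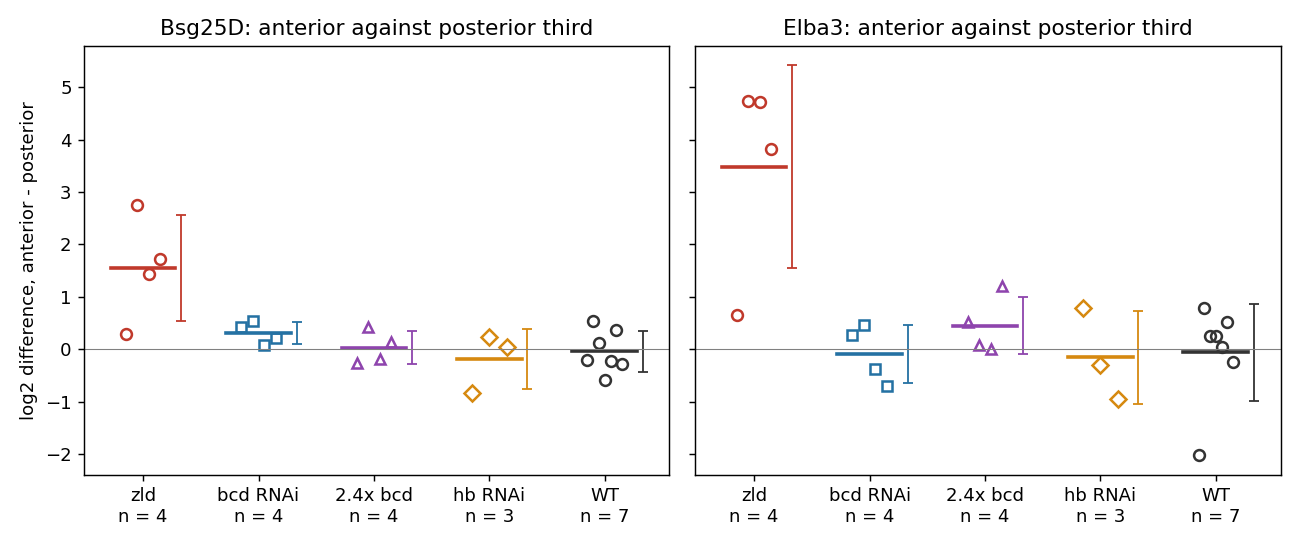
Log2 ratio of the anterior to the posterior part for Bsg25D (left) and Elba3 (right), 1 symbol per embryo, with the group mean (bar) and SD (whisker) for zld, bcd RNAi, 2.4x bcd, hb RNAi and WT. The zld embryos of cycle 14 lie between 3.83 and 4.73 for Elba3 and between 1.43 and 2.75 for Bsg25D, above every embryo of the other groups.

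The ratio of the middle part to both ends gave the same picture within zld. Elba3 was lower in the middle (log2 ratio -2.37 ± 0.36, adjusted p = 0.0020), as was Bsg25D (-0.73 ± 0.16, adjusted p = 0.039), where 0.366% of genes passed. For Bsg25D this call was lost without the outermost slices (-0.27), with kallisto values (adjusted p = 0.062), with a pseudocount of 0.1 FPKM (adjusted p = 0.054) and without the zld embryo at 14A (-0.67), 14B (-0.56) or 14D (-0.77). For Elba3 it was -1.87 ± 0.35 without the embryo labelled zld at cycle 14B (adjusted p = 0.036). The difference from wild type was -1.98 ± 0.45 for Elba3 (adjusted p = 0.13) and -0.78 ± 0.20 for Bsg25D (adjusted p = 0.24), and neither passed, where 0.0585% of genes did. Since the anterior slices belong to the ends, this ratio is not independent of the slope above. The middle of the zld embryos at 14A and 14D was not below the posterior part. Elba3 had 2.75 FPKM in the middle against 1.3 at 14A, and 1.45 against 0.445 at 14D. Bsg25D had 45.2 against 21.2 FPKM at 14A, and 45.0 against 31.7 at 14D. Only at 14B was the middle lower, at 0.465 against 0.567 FPKM for Elba3 and 37.6 against 48.3 for Bsg25D.

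In the other 3 lines neither gene showed a slope like that of zld. The Elba3 log2 ratio of anterior to posterior ran from -0.70 to 0.47 in the 4 bcd RNAi embryos, from 0.01 to 1.20 in the 4 of 2.4x bcd and from -0.95 to 0.79 in the 3 of hb RNAi. For Bsg25D it ran from 0.08 to 0.54 in bcd RNAi, from -0.26 to 0.42 in 2.4x bcd and from -0.84 to 0.23 in hb RNAi. None of these lines differed from wild type in the slope of either gene, with adjusted p from 0.72 to 0.99, and the log2 differences lay between -0.15 ± 0.35 (hb RNAi, Bsg25D) and 0.51 ± 0.61 (2.4x bcd, Elba3). In these tests 0.0146% of genes passed for bcd RNAi, 0.0583% for 2.4x bcd and 0% for hb RNAi.

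Bsg25D has several annotated transcripts, and the separate kallisto table, in TPM (a share of all transcripts in a library, scaled by transcript length), estimates how these values divide among them. The short transcript Bsg25D-RD, of 2514 bases, runs from 5273827 to 5277341 and thus lacks both the first and the last part of the gene. The others are 3010 to 4666 bases long. Because they share most of their sequence, a share of a transcript is an estimate of the program and not a direct count.

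In wild type the short form made up 8.94% of Bsg25D at cycle 11, 61.7% at cycle 13, 88.5% at 14A and 93.2% to 98.5% from 14B on. Its level was 0.377 TPM at cycle 11, 11.8 at cycle 13, 54.7 at 14A, 196 at 14B, 160.1 at 14C, 289.5 at 14D and 358 TPM at 14E. The other transcripts summed to 3.84 to 21.3 TPM with no such rise. The increase of Bsg25D in wild type was thus an increase of the short form, with 1 embryo a stage and no test.

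In zld the short form was at 1.18 TPM at cycle 11, 0.333, 1.77 and 9.16 TPM at cycle 13, and 31.7, 32.0 and 16.8 TPM at 14A, 14B and 14D, or 77.6%, 63.2% and 43.9% of the gene at 14A, 14B and 14D. The other transcripts summed to 23.1 TPM at cycle 11, 13.4, 8.21 and 61.9 TPM at cycle 13, and 9.18, 18.7 and 21.4 TPM at 14A, 14B and 14D in zld, against 3.84, 7.32, 7.15, 9.09 and 21.3 TPM at cycles 11, 13, 14A, 14B and 14D in wild type. The sum was higher in each zld embryo than in wild type at its stage, by the least at 14D. With kallisto values the median log2 change of all genes in zld was itself 0.72, so a higher value is common there. The gaps at 14A and 14D, and that of 8.21 against 7.32 TPM at cycle 13, were smaller than this median. The slope of Bsg25D in zld lay mainly in the short form, without a test. At 14D it averaged 44.2 TPM in the anterior and 0.943 TPM in the posterior part, against 30.02 and 16.3 TPM for the other transcripts, and at 14A 79.9 and 1.49 TPM, against 9.88 and 7.92 TPM.

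Tested as a single transcript over the matched stages, a step added after the data were seen in which 27.2% of 10846 transcripts passed, the short form Bsg25D-RD did not pass (log2 change -1.75 ± 0.64, adjusted p = 0.062). The long form Bsg25D-RE was at 5.21 TPM at cycle 11, 2.54, 0.807 and 16.6 TPM at cycle 13, and 0.87, 1.97 and 3.10 TPM at 14A, 14B and 14D in zld, against 0.00429 to 0.464 TPM at the matched stages in wild type. Since this form reached the level needed for testing only through the zld embryos, no test is given for it and no difference is read from these values. They also vary within an embryo, from 0 to 29.6 TPM over the slices of the zld embryo at cycle 13 numbered 3.

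**Figure D4:**
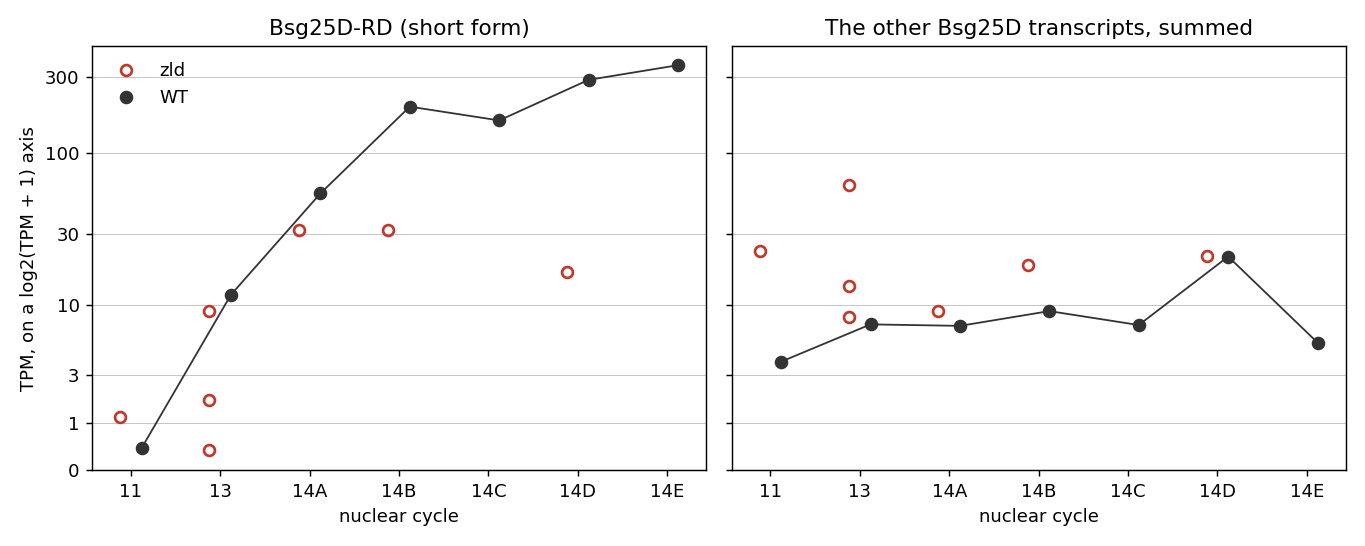
Mean TPM of the short transcript Bsg25D-RD (left) and of the other 6 annotated Bsg25D transcripts summed (right) in each zld (open red) and wild-type (filled black) embryo by nuclear cycle, on a log2(TPM + 1) axis. The short form climbs to 358 TPM in wild type and stays at or below 32.0 TPM in zld, while the other transcripts stay between 3.84 and 21.3 TPM in wild type.

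The step from cycle 13 to cycle 14D could be tested with replicate embryos in the 3 lines made with SMARTseq2, and in it the 2 genes went opposite ways. Bsg25D rose 5.69-fold on average over the lines (log2 change 2.51 ± 0.43, adjusted p = 0.000274, limma over 11 embryos). It had 88.2 and 36.2 FPKM at cycle 13 and 237 and 320.0 FPKM at 14D in bcd RNAi, 42.0 and 87.4 FPKM at cycle 13 and 268 and 119 FPKM at 14D in 2.4x bcd, and 23.1 FPKM at cycle 13 and 684 and 148 FPKM at 14D in hb RNAi. Every embryo at 14D was above every embryo at 13. Elba3 fell 2.70-fold on average (log2 change -1.44 ± 0.47, adjusted p = 0.016). It had 114.7 and 67.0 FPKM at cycle 13 and 9.39 and 16.6 FPKM at 14D in bcd RNAi, 72.1 and 123 FPKM at cycle 13 and 50.8 and 8.66 FPKM at 14D in 2.4x bcd, and 19.9 FPKM at cycle 13 and 53.8 and 14.8 FPKM at 14D in hb RNAi. Its stages did not overlap in bcd RNAi and 2.4x bcd but did in hb RNAi. The share of all genes without such overlap was not counted. Nothing is therefore read from this or from the order of the Bsg25D embryos. In the test of this step 79.8% of the 6936 genes passed, so a passed test is common here. With kallisto values the fall of Elba3 did not pass (log2 change -0.77 ± 0.47, adjusted p = 0.16).

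By line, the step of Bsg25D was 2.26 ± 0.69 in bcd RNAi (adjusted p = 0.0148), 1.54 ± 0.69 in 2.4x bcd (adjusted p = 0.076) and 3.73 ± 0.84 in hb RNAi (adjusted p = 0.0025) on the log2 scale, where 62.8% of genes were called in bcd RNAi, 59.7% in 2.4x bcd and 69.7% in hb RNAi. That of Elba3 was -2.71 ± 0.75 in bcd RNAi (adjusted p = 0.0096), -2.09 ± 0.75 in 2.4x bcd (adjusted p = 0.034) and 0.50 ± 0.92 in hb RNAi (adjusted p = 0.65). Without 1 embryo, the bcd RNAi step of Bsg25D did not pass without cycle 13 replicate 2 (1.63, adjusted p = 0.12) or cycle 14D replicate 2 (2.05, adjusted p = 0.085), and that of Elba3 did not pass without cycle 13 replicate 1 (-2.33, adjusted p = 0.061) or cycle 14D replicate 1 (-2.33, adjusted p = 0.073). The Elba3 step in 2.4x bcd did not pass without its cycle 14D replicate 2 (-0.88, adjusted p = 0.33), its cycle 13 replicate 1 (-2.47, adjusted p = 0.062) or its cycle 13 replicate 2 (-1.71, adjusted p = 0.17). With no filter none of these 3 calls passed for bcd RNAi and 2.4x bcd (adjusted p = 0.096 for Bsg25D and 0.072 for Elba3 in bcd RNAi, and 0.15 for Elba3 in 2.4x bcd), and without either hb RNAi embryo at cycle 14D the Bsg25D step in 2.4x bcd passed (1.54, adjusted p = 0.015). The lone hb RNAi embryo at cycle 13 is assumed to vary like the others. The 4 contrasts between these lines at a shared stage gave no call for either gene, with adjusted p from 0.39 to 0.93 and log2 differences between -1.12 ± 0.75 (bcd RNAi minus hb RNAi at 14D, Elba3) and 0.62 ± 0.69 (bcd RNAi minus 2.4x bcd at 14D, Bsg25D). Over all genes, 34.4% passed between bcd RNAi and 2.4x bcd at cycle 13 and 22.8% at 14D, 5.35% between bcd RNAi and hb RNAi and 3.17% between 2.4x bcd and hb RNAi at 14D.

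Against wild type, Elba3 was lower in all 3 lines at cycle 14D, where it stood at 8.66 to 53.8 FPKM in their 6 embryos and 876 FPKM in wild type. The log2 change was -6.02 ± 0.91 in bcd RNAi (adjusted p = 0.000194, with 43.7% of 6834 genes called), -5.29 ± 0.91 in 2.4x bcd (adjusted p = 0.000557, 43.2% called) and -4.90 ± 0.91 in hb RNAi (adjusted p = 0.00087, 42.2% called). Against the later wild-type embryo of 14E, at 459 FPKM, it was -5.09 in bcd RNAi (24.4% called), -4.36 in 2.4x bcd (25.5% called) and -3.97 in hb RNAi (22.4% called), each with adjusted p of 0.0116 or less. At cycle 13 the Elba3 change was -1.54 ± 0.91 in bcd RNAi and -1.44 ± 0.91 in 2.4x bcd, neither called (adjusted p = 0.24 in both, with 20.2% and 32.7% of genes called), and -3.63 ± 1.05 in hb RNAi (adjusted p = 0.0148, 40.3% called). That last comparison is between 1 embryo and 1 embryo, with the spread taken from the other groups, and did not pass with a pseudocount of 0.1 FPKM (adjusted p = 0.076). Wild type has 1 embryo in each of these comparisons. Bsg25D passed in none of these lines at either stage, with changes from -1.48 ± 0.84 to 0.55 ± 0.84. Library kit and slice width change together with the line in these comparisons and cannot be told apart from it.

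Elba3 and Elba1 lie 3049 bases apart and had like levels in wild type from cycle 13 to 14D. Elba3 was at 97.7% of the Elba1 FPKM at cycle 13, 101.9% at 14A, 82.5% at 14B, 86.3% at 14C, 78.3% at 14D and 46.6% at 14E. In the SMARTseq2 lines it was at 13.7% to 28.1% of Elba1 at cycle 13 and at 2.74% to 13.7% at 14D. Elba1 itself measured 108 to 520 FPKM at 14D in those lines, against 1119 FPKM in wild type.

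Of the other subunits, Elba1 fell 130.2-fold in zld over the matched stages (log2 change -7.02 ± 0.78, adjusted p = 0.000506) and stood at 0 to 2.45 FPKM in the zld embryos. Elba2 measured 144 to 195 FPKM at cycles 11 and 13 and 261 to 312 FPKM at cycle 14 in zld, against 125 and 239 FPKM at cycles 11 and 13 and 456 to 939 FPKM at the matched cycle 14 stages in wild type. It fell 1.72-fold (log2 change -0.78 ± 0.28, adjusted p = 0.048), a call that was lost with kallisto values (-0.22, adjusted p = 0.57) and without the embryo labelled zld at cycle 14B (-0.58, adjusted p = 0.18), while Elba1 was then at -6.70 (adjusted p = 0.0038). insv, a related BEN-domain gene whose product acts as a co-repressor, did not pass (log2 change -0.30 ± 0.25, adjusted p = 0.38), and its change was -0.82 with median-ratio scaling (adjusted p = 0.038) and 0.10 with kallisto values. Thus 3 of these 4 genes passed as lower, Elba3 included, with a median log2 change of -3.16 against 0.36 for all genes, of which 4.38% passed as lower. The count was 4 with median-ratio scaling, 2 with kallisto values and 2 without the embryo labelled zld at cycle 14B. Of all genes, more passed as lower with median-ratio scaling and fewer in the other 2 settings. Elba2 and insv were present at cycle 11 in wild type, at 125 and 86.7 FPKM, when Elba1 and Elba3 were at 2.24 and 1.45 FPKM.

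Among the early zygotic genes of the blastoderm, 12 of 32 fell in zld over the matched stages, 1 rose and 19 did not pass, where 4.38% of all genes passed as lower and 30.8% as higher. Without the embryo labelled zld at cycle 14B the counts were also 12 and 1, where fewer of all genes passed in either direction. halo, which acts on the transport of lipid droplets, fell 101.4-fold (adjusted p = 0.00062), and Z600, or frs, an inhibitor of mitosis, fell 59.5-fold (adjusted p = 0.0011). cad, a posterior homeobox gene, was the one that rose (log2 change 0.60 ± 0.18, adjusted p = 0.021), and it did not pass with median-ratio scaling. The largest positive changes of the list, 0.82 ± 0.57 for hkb and 0.82 ± 0.62 for ftz, did not pass. The fall of Elba3 was thus inside the range of this list and Bsg25D was nearer to its median of -0.21. In the slope test 6 of the 32 were steeper towards the anterior in zld than in wild type (0.437% of all genes in either direction), namely bnk, Sry-alpha, halo, amos, zen and Z600, with excess log2 ratios of 4.94, 3.71, 3.53, 3.01, 2.19 and 2.14. These names, and cad, were chosen after their values were seen.

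Of 12 genes for boundary and insulator proteins, 6 rose in zld, none fell and 6 did not pass, where 30.8% of all genes passed as higher. CTCF, a zinc-finger insulator protein, rose 3.48-fold (adjusted p = 0.0031) and Chro, a chromodomain protein of interbands, 2.18-fold (adjusted p = 0.0026), while BEAF-32 (log2 change -0.37 ± 0.20) and Ibf1 (-0.21 ± 0.21) did not pass. Of 24 centrosome and pericentriolar genes, 11 rose, none fell and 13 did not pass, beside the same 30.8% of all genes. gammaTub37C, the maternal gamma-tubulin, rose 9.20-fold (adjusted p = 0.0022) and spd-2, a centriole protein that recruits pericentriolar material, 2.38-fold (adjusted p = 0.0052), while the lowest changes, 0.15 ± 0.16 for Grip75 and 0.27 ± 0.28 for Grip71, did not pass. The direction of both lists depends on the scaling. With median-ratio scaling 2 insulator genes rose and 2 fell, and 1 centrosome gene rose and none fell, where 701 of all genes passed as higher and 1150 as lower. Without the embryo labelled zld at cycle 14B, 4 insulator genes and 9 centrosome genes rose and none fell, where fewer of all genes passed as higher as well.

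The neighbours had other values. Bub1, a kinase of the spindle checkpoint that starts 316 bases from Bsg25D, measured 14.9 to 51.1 FPKM in zld, against 6.52 to 16.99 FPKM at the matched stages in wild type, a rise (log2 change 1.01 ± 0.23, adjusted p = 0.0066). tkv, a receptor of the Dpp pathway on the other side, rose as well (1.01 ± 0.22, adjusted p = 0.0062). With median-ratio scaling the changes were 0.52 and 0.50 and neither passed. CG11929 and CG3251, beside Elba3, were below the filter, at 0 to 0.323 and 0 to 0.45 FPKM in zld and 0.094 to 3.52 and 0 to 0.0162 FPKM in wild type. With median-ratio scaling CG11929 entered the fit and was lower in zld (log2 change -1.40 ± 0.33, adjusted p = 0.0145).

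Across the 25 embryos, the genes whose log2(mean FPKM + 1) was most like that of Bsg25D were CG43085 (Pearson r = 0.913), Ac78C, an adenylyl cyclase (r = 0.90), and tld, a metalloprotease of dorsal patterning (r = 0.895). Those most like Elba3 were CG34137 (r = 0.919), bnk, a regulator of cellularization (r = 0.916), and srw, a gene of dorsal patterning (r = 0.914). The r between Bsg25D and Elba3 was 0.635, and Elba3 ranked 289th for Bsg25D among 6834 genes. Elba1 had r = 0.847 with Elba3. These are descriptions over embryos that share genotype, stage and library kit. Since the same embryos chose these genes, their changes in zld and between stages are not given as results.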

How the data were processed

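The RNA of single slices was sequenced (RNA-seq). The authors aligned reads with STAR 2.3.0.1 to FlyBase release r6.03, removed carrier reads and low slices, and deposited Cufflinks 2.2.1 FPKM per gene; 338 of 382 slices have values, and 45 columns have none or name no sample. A second deposited table, from kallisto 0.42, holds values per transcript that were taken as TPM, since each column sums to the same total although it is headed FPKM. Of its 30385 transcripts, 30048 matched the BDGP6 annotation.

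FPKM were averaged over the slices of an embryo. limma 3.58.1 in R 4.3.3 (lmFit, eBayes with trend, two-sided) was run on log2(mean FPKM + 1) for genes with a mean of at least 1 FPKM, with Benjamini-Hochberg adjustment over all of them and a threshold of 0.05. Fold changes are on that scale, which understates those of low genes. The zld fit had stage as a factor (12 embryos), the SMARTseq2 fit had group means (11 embryos), the fit of all lines had group means (25 embryos), and the slope fits had genotype means (22 embryos with at least 6 valued slices and a value in each of 3 equal parts). Groups of 1 embryo were assumed to vary like the others. Nothing states that the replicate embryos came from separate crosses, so the p-values measure the spread between these embryos. The fits were tested on simulated data: of 100 genes given a log2 change of 2, the zld fit called 87% (6582 genes) and the stage fit 96% (6936 genes).

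Fragments per slice were estimated in TruSeq slices from the step between FPKM values of 2388 single-transcript genes, and 100% of 40 simulated slices came within 1.25 times the true depth. In SMARTseq2 slices the steps were blurred and depth is not given.

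The 2 genes and the gene lists were chosen with earlier results of these data known. Named were every Elba gene, from each other list the 2 genes of largest rise and fall in zld, the nearest neighbours, the 3 most similar genes and the perturbed genes. Alternatives were pseudocounts of 0.1 and 5 FPKM, no filter and a filter at 5 FPKM, median-ratio scaling, kallisto values, the median over slices, each replicate left out, a replicate block, wild type at 14E as the reference, and for slopes 2 equal parts, no outermost slices and cycle 14 only. The tests of transcripts, those without the wild-type embryo at cycle 11 and those leaving out a zld embryo from the slopes were added after the data were seen. Sequences are not printed. Python 3.11.15, pandas 2.3.3, numpy 2.4.6 and matplotlib 3.10.9 were used.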

Additional observations from a re-analysis of the deposited data

Results flagged for a closer look

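Within single embryos, 8 slices stood far from the other slices of their embryo, of 22 embryo and gene pairs examined. The rule marks about 1 in 20 groups of values without order. Slices lie in order along an axis, so that rate does not hold for them. Only embryos with 4 to 10 valued slices were examined, which leaves out zld and wild type at 14D and all SMARTseq2 embryos. The cycle 14 zld slices named here also enter the slope above. In zld, slice 1 had 213.6 FPKM of Bsg25D at cycle 14A, where the next slice had 83.38, and 239.7 FPKM at cycle 14B, where the next had 94.32. For Elba3, slice 1 had 109.2 FPKM at 14A (next 10.68), 93.91 FPKM at 14B (next 24.03) and 1.16 FPKM at cycle 11, where every other slice was listed at 0. In wild type, slice 14 at cycle 11 had 13.55 FPKM of Bsg25D (next 9.15) and 11.05 FPKM of Elba3 (next 2.49), and slice 13 at cycle 14E had 801 FPKM of Elba3 (next 476.2).

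Slices that have only kallisto values, and entered no comparison in FPKM, also held both transcripts. In wild type, slice 5 at cycle 13 had 8.67 TPM of Bsg25D and 51.98 TPM of Elba3, and slice 9 at cycle 14A had 70.33 TPM of Bsg25D and 278.1 TPM of Elba3.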

How the results depend on the processing

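Of 672 pairs of a result and an alternative, 590 kept both direction and side of the threshold, and 24 of 58 results did so throughout. The cause of the changes below was not tested, except that fewer embryos or more genes enter some fits.

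With no filter on low genes, the fall of Bsg25D in zld at cycle 14 (-2.32, adjusted p = 0.072) and the stage fall of Elba3 (-1.44, adjusted p = 0.088) did not pass, and 1345 genes were higher and 168 lower in zld. With kallisto values they were -1.86 and -0.77 (neither passed), 161 genes were lower in zld and 1812 lower at 14D, Bsg25D in bcd RNAi minus wild type at cycle 13 was -0.29, the wild-type slope of Elba3 was 0.061, the slope of Bsg25D in 2.4x bcd minus wild type was -0.040, and the middle ratio of Bsg25D in zld was -0.79 (adjusted p = 0.062). With median-ratio scaling, 701 genes were higher and 1150 lower in zld, bcd RNAi minus 2.4x bcd at cycle 13 was 0.18 for both genes, and Bsg25D at cycle 13 minus wild type was -0.022 in bcd RNAi and -0.15 in 2.4x bcd.

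Without the embryo labelled zld at cycle 14B, Bsg25D at cycle 14 was -2.18 (adjusted p = 0.12), and 1174 genes were higher and 184 lower. Without the wild-type embryo at cycle 11, Bsg25D passed over the matched stages (-1.67) and was -0.36 at cycles 11 and 13, and the difference between periods for Elba3 was 1.24. A pseudocount of 0.1 FPKM gave 0.26 for that Elba3 difference, 0.25 for the slope of Elba3 in bcd RNAi minus wild type, 0.19 in hb RNAi minus wild type, and -0.74 for the middle ratio of Bsg25D in zld (adjusted p = 0.054). A pseudocount of 5 FPKM gave 0.12 for the wild-type slope of Elba3.

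Without the outermost slices, the slope in zld minus wild type was 1.29 for Bsg25D and 2.16 for Elba3 (neither passed), that of wild type was 0.019 and 0.15, and the middle ratio of Bsg25D in zld was -0.27. With cycle 14 embryos only, the wild-type slope of Elba3 was 0.17, that of Bsg25D in hb RNAi minus wild type was 0.26, and the middle ratio in zld minus wild type passed for Bsg25D (-1.09) and Elba3 (-2.84). With 2 equal parts, the slope was 0.0020 for Elba3 in bcd RNAi minus wild type and -0.025 for Bsg25D in 2.4x bcd minus wild type.

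Leaving out 1 embryo at a time, the stage change of Elba3 in hb RNAi ran from -0.40 to 1.395. bcd RNAi minus 2.4x bcd ran from -0.73 to 0.53 (Bsg25D) and -0.48 to 0.28 (Elba3) at cycle 13, and from -1.94 to 0.49 for Elba3 at 14D. bcd RNAi minus hb RNAi ran from -1.31 to 0.89 for Bsg25D. 2.4x bcd minus hb RNAi ran from -1.94 to 0.27 for Bsg25D, which passed without hb RNAi replicate 2 (adjusted p = 0.049), and from -1.61 to 0.82 for Elba3. The slope in zld minus wild type ran from 1.19 to 2.01 for Bsg25D and 3.13 to 4.48 for Elba3. The middle ratio ran from -0.91 to -0.56 for Bsg25D in zld, and in zld minus wild type from -0.97 to -0.61 for Bsg25D and -2.65 to -1.48 for Elba3.

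The correlation of deviations between groups, taken by replicate number, ran from -0.312 to 0.222 over 10 pairs and was over 0.1 in 3. These values give no clear pairing by replicate number, but they cannot exclude shared crosses or batches. With replicate number as a block, the stage change was 2.61 for Bsg25D (adjusted p = 0.000247) and -1.32 for Elba3 (adjusted p = 0.0219), with 2659 genes higher and 2856 lower, and no call of either gene changed. An Elba3 value listed at 0 does not exclude a level of up to 3 fragments, and SMARTseq2 depth is unknown.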
